A study of Bos taurus with 11 samples.

Results

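The 34 genes of the constitutive proteasome were followed here: the 7 alpha subunits PSMA1 to PSMA7, the 7 beta subunits PSMB1 to PSMB7, the 6 ATPases PSMC1 to PSMC6 and the 14 non-ATPase proteins PSMD1 to PSMD14. They were chosen by gene name from the 24839 names on a bovine oligonucleotide array, on which 70 probes of 60 bases carried one of the 34 names. Of the 34 genes, 11 had 1 probe and 23 had 2 or more, and each gene was represented by its brightest probe over all arrays. Total RNA came from peripheral blood mononuclear cells (PBMC, mostly lymphocytes with some monocytes) of 11 female cattle. The 5 Ladakhi animals belong to a native breed of high altitude, and the 6 Sahiwal animals to a breed of the low-lying arid and semi-arid plains. The Sahiwal cells are labelled basal, no treatment is given for either breed, and no age is stated. Each array held 1 animal, so p-values measure the spread between these animals. An Agilent scanner read the Ladakhi slides and an Axon scanner the Sahiwal slides, with different versions of the extraction software, and each of the 4 slides held a single breed. Breed, altitude, scanner, software and slide cannot be told apart in any difference given here. In a mixed cell sample such as this one, fewer cells of a type and less RNA per cell cannot be told apart either.

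The proteasome degrades proteins that have been tagged with ubiquitin. Its core particle is a stack of rings: outer rings of alpha subunits form the gate, and inner rings of beta subunits hold the cutting sites, of which PSMB5 carries the chymotrypsin-like, PSMB6 the caspase-like and PSMB7 the trypsin-like activity. A regulatory particle caps the core. Its ring of PSMC ATPases unfolds the substrate, and its PSMD proteins bind ubiquitin, remove it and hold the cap together. Lymphocytes and monocytes also make an immunoproteasome, in which PSMB8, PSMB9 and PSMB10 take the places of the catalytic subunits and favour peptides for antigen presentation.

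Values are levels on a log2 scale: the processed signal of a probe relative to the 75th percentile of the 2705 probes detected on all 11 arrays. A level of 0 therefore stands for a bright probe, and levels of different probes are not compared, since probes differ in how well they bind. The Ladakhi arrays were much dimmer, with 4243 to 6608 of 43803 spots well above background against 17517 to 20574 on the Sahiwal arrays. Markers of the cells that the label names were measured in both breeds: 2 of 5 T cell genes, 2 of 4 B cell genes, 2 of 4 natural killer genes and 2 of 4 monocyte genes. The summed linear level of the monocyte list was 0.806 to 2.19 in Ladakhi and 2.15 to 5.77 in Sahiwal, with LYZ lower in Ladakhi by 1.80 (difference -1.80, adjusted p = 0.00542) and CSF1R at a difference of -0.07 (adjusted p = 0.891). This sum mostly follows LYZ, its brightest probe (Sahiwal mean 1.53, beside -1.54 for CSF1R). The sums of all lists take in signals below background. CD14, above background on 1 Ladakhi array, and CD68, on none, had Sahiwal means under the average Ladakhi detection limit. The summed T cell list overlapped (0.435 to 1.93 in Ladakhi and 0.579 to 1.58 in Sahiwal), as did the B cell list (1.27 to 2.07 and 0.763 to 2.06) and the natural killer list (0.755 to 2.15 and 0.265 to 1.16). The granulocyte list reached 0.180 at most in Ladakhi and ran from 0.044 to 1.82 in Sahiwal, where CSF3R was detected on all 6 arrays. CSF3R read 0.15 and 0.59 in Sahiwal animals 4 and 6 and -4.65 to -3.73 in the other Sahiwal animals. CSF3R, CATHL1 and ELANE were above background on no Ladakhi array and CXCR2 on 1. The red cell list lay at 0.311 to 0.559 and 0.079 to 1.61, and the platelet list at 1.72 to 2.33 and 0.248 to 4.39. The part of these cell types in the differences below was not tested.

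All 34 genes were above background on all 6 Sahiwal arrays. On the Ladakhi arrays 20 were detected in all 5 animals, 3 in 4 animals (PSMC2, PSMD6 and PSMD7), PSMD1 in 3, PSMB3 in 2, 5 in 1 animal (PSMB5, PSMC6, PSMD5, PSMD9 and PSMD14) and 4 in none (PSMA3, PSMC1, PSMD10 and PSMD12). The word measured is kept here for a gene detected in at least 4 animals of each breed, which held for 23 of the 34 (67.6%). Of the 11154 genes detected in Sahiwal, 27.4% were measured by the same rule. The detection limit, the lowest level above background on an array, was -4.45 to -3.03 in Ladakhi and -8.91 to -7.50 in Sahiwal. Of the 11 genes not measured, 6 had a Sahiwal mean under the average Ladakhi limit of -3.78: PSMA3, PSMD5, PSMD9, PSMD10, PSMD12 and PSMD14. The other 5, PSMB3, PSMB5, PSMC1, PSMC6 and PSMD1, lay above that limit in Sahiwal. Among all genes above it in Sahiwal, 2879 of 4737 (60.8%) were measured, beside 23 of 28 (82.1%) of the proteasome genes.

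**Figure D1:**
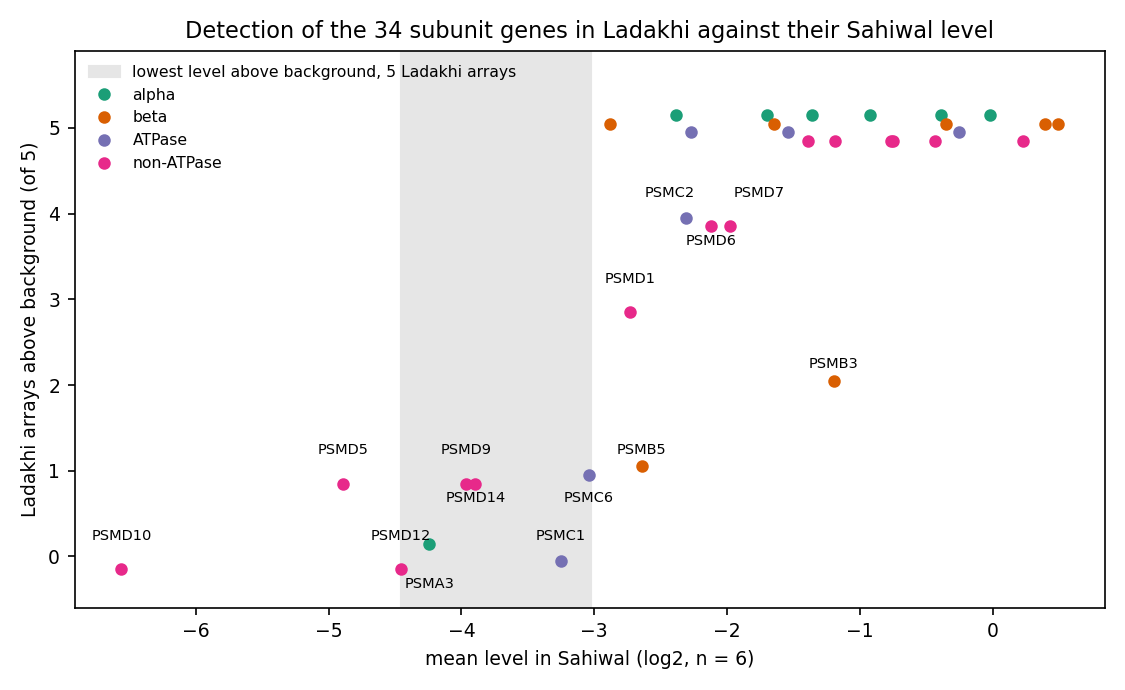
Number of Ladakhi arrays on which each of the 34 genes was above background (vertical axis, of 5, points of the 4 classes set slightly apart) against the gene's mean level in Sahiwal (horizontal axis, log2, 6 animals). The grey band spans the detection limits of the 5 Ladakhi arrays, -4.45 to -3.03, and PSMB3 stands well to its right with 2 Ladakhi arrays detected.

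For PSMC1, an ATPase, the Sahiwal mean of -3.25 ± 0.18 (SD, n = 6) lay 1.44-fold above the average of the Ladakhi limits. That fold is a bound on the breed means only. The limit of Ladakhi animal 2 was -3.03, above all 6 Sahiwal levels (-3.55 to -3.04), so this animal alone gives no bound. No fold is given for PSMA3, PSMD10 and PSMD12, whose Sahiwal means lay below the average of the Ladakhi limits. The test with dim spots raised to the limit of their array gave -0.52 for PSMC1 (SE 0.300, adjusted p = 0.130), and the bound by its second probe was 1.099-fold. Raised values are limits of arrays and not levels of animals. Here and below, the SE and p of this test are therefore no measure of the full spread between Ladakhi animals. PSMB3, a beta subunit without a cutting site, had Sahiwal levels of -1.44 to -0.95 with a median of -1.17, and its 5 Ladakhi levels were -4.35, -4.74, -4.48, -2.997 and -2.58, only the last 2 of them above background. No Ladakhi level reached the Sahiwal range. With dim spots raised in the same way the difference was -2.07 (SE 0.308, adjusted p = 8.64e-06). A second PSMB3 probe, above background on 4 Ladakhi arrays, differed by -0.66 (SE 0.359, adjusted p = 0.152). The probes of PSMB3 thus gave differences of unlike size. For PSMC6, another ATPase detected in 1 Ladakhi animal, the difference with raised spots was -0.61 (adjusted p = 0.109). For PSMD1, a scaffold protein of the cap detected in 3, it was -0.07 (adjusted p = 0.857).

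Between breeds, 6 of the 23 measured genes (26.1%) differed at an adjusted p under 0.05. Ladakhi levels were higher for PSMB2, PSMC4 and PSMD2 and lower for PSMD3, PSMD4 and PSMD11. Over all 3051 measured genes 31.9% passed the same threshold, 17.8% higher and 14.1% lower in Ladakhi, so the share among proteasome genes was no higher than among measured genes at large. For 5 of the 23 (21.7%) the values of the 2 breeds did not overlap, beside 21.3% of all measured genes. The median difference (Ladakhi minus Sahiwal) was 0.18 for the 23 genes and -0.01 for all measured genes. It turned to -0.37 when all probes of a gene were averaged, a setting that takes in probes below background on Ladakhi arrays. With each gene's brightest Sahiwal probe it was -0.13 over 22 measured genes. PSMB2 was then not measured, and PSMA6 and PSMC4 were read by other probes, detected on all 5 Ladakhi arrays (-0.34 and 0.29). The other 17 genes differed by -0.90 to 0.63, with adjusted p from 0.0502 (PSMA7) to 0.941 (PSMA5), and none by more than 1.86-fold. In absolute size the difference was under 1 for 19 of 23 genes (82.6%) and for 2193 of 3051 measured genes (71.9%).

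**Figure D2:**
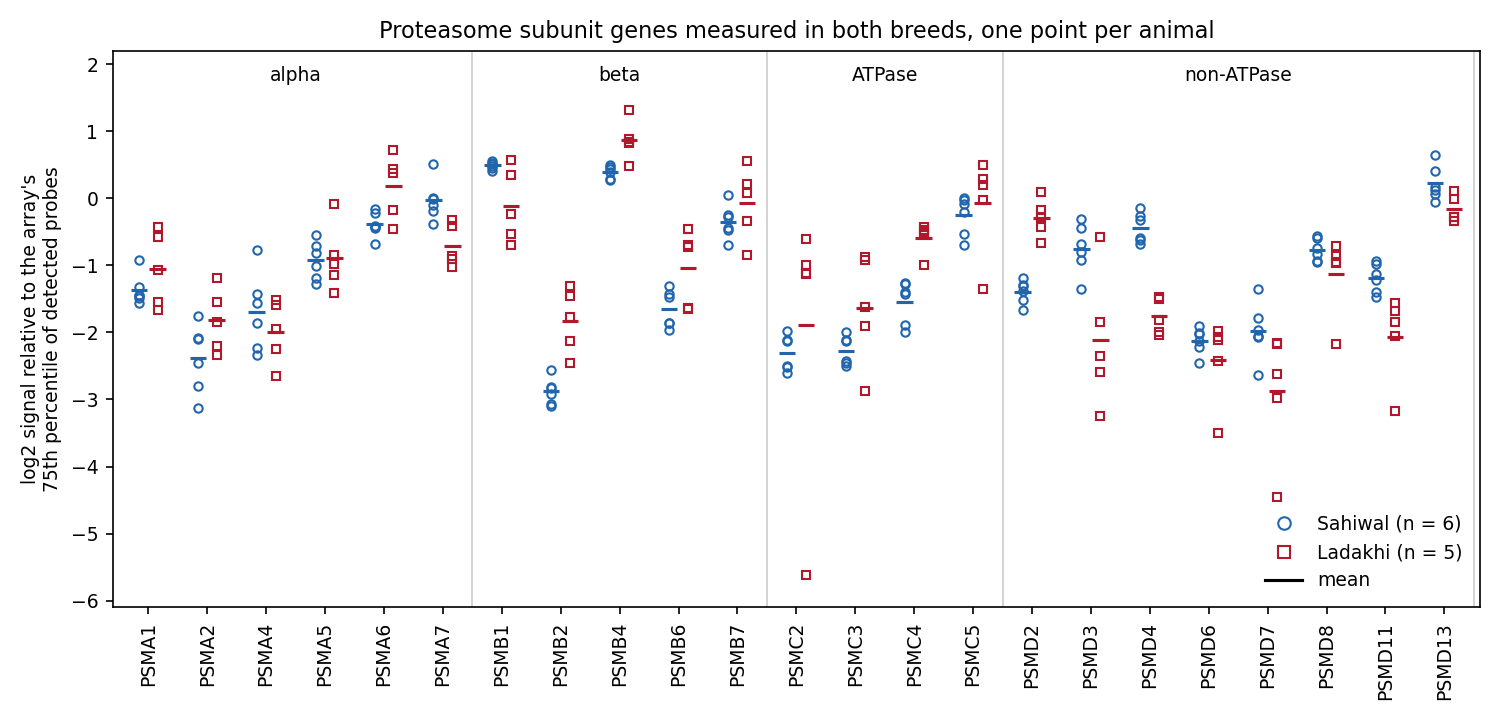
Level of the 23 measured genes in each animal (vertical axis, log2 relative to the 75th percentile of detected probes), with Sahiwal as circles, Ladakhi as squares, and a bar at each breed's mean, grouped by subunit class. Ladakhi squares spread more widely than Sahiwal circles for most genes, and the breeds do not overlap for PSMB2, PSMC4, PSMD2, PSMD4 and PSMD11.

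Of the 7 alpha subunits, which form the outer rings and the gate of the core, 6 were measured and none differed at the threshold. Their differences ran from -0.68 to 0.57 with a median of 0.17, 4 above and 2 below 0. The sign of that median was not stable: it was -0.18 with probes averaged, -0.13 with the brightest Sahiwal probe, -0.06 with normexp background correction and -0.01 without Ladakhi animal 5. PSMA7 came nearest: its Sahiwal levels were -0.38 to 0.52 with a median of -0.05, and its Ladakhi levels were -1.03, -0.91, -0.33, -0.41 and -0.86. Ladakhi animal 3 lay within the Sahiwal range and the other 4 below it, and the difference was -0.68 (SE 0.264, adjusted p = 0.0502). A further measured PSMA7 probe differed by -1.59 (adjusted p = 0.00105). PSMA6, with a difference of 0.57 (SE 0.276, adjusted p = 0.109), and PSMA2, with 0.56 (SE 0.322, adjusted p = 0.173), lay on the other side of 0. PSMA1 differed by 0.30, PSMA5 by 0.03 and PSMA4 by -0.29.

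Of the 7 beta subunits, 5 were measured, and PSMB2, a structural subunit of the inner ring, was the one that differed. Its probe begins as follows and lies at chr3:117388862-117388921 on the plus strand of HGSC Btau_3.1, the build of the array files; the first 30 of its 60 bases are shown, here and for the probes below, because they fix which stretch of the transcript was read.
PSMB2: attgacagaaatggcatccatgacctggac
PSMB2 levels in Ladakhi animals 1 to 5 were -2.46, -2.13, -1.77, -1.46 and -1.31, and in Sahiwal animals 1 to 6 -2.81, -2.82, -3.06, -2.91, -3.10 and -2.56. All 5 Ladakhi animals lay above all 6 Sahiwal animals. The difference was 1.05 (SE 0.275, 2.07-fold, adjusted p = 0.008). A second PSMB2 probe read -2.24, -2.08 and -1.91 in Ladakhi animals 3, 4 and 5, above its Sahiwal range of -3.03 to -2.33, and was below background in Ladakhi animals 1 and 2. It gives no settled direction, and the call was lost when it was averaged with the first.

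Of the 3 catalytic subunits, PSMB6 and PSMB7 were measured and neither differed at the threshold, while PSMB5 was detected in 1 Ladakhi animal. PSMB5, the chymotrypsin-like subunit, read -2.94, -2.70, -3.08, -2.28, -2.63 and -2.23 in the Sahiwal animals and -5.47, -3.88, -4.65, -4.02 and -3.29 in the Ladakhi animals, of which only the last, animal 5, was above background. With dim spots raised to the limit it differed by -0.90 (SE 0.298, adjusted p = 0.0122). All Ladakhi values but that of animal 5 are then array limits, so that p does not measure the spread between animals. PSMB5 has 1 probe. PSMB6, the caspase-like subunit, read -0.70, -1.64, -1.66, -0.45 and -0.72 in Ladakhi and -1.42, -1.97, -1.86, -1.47, -1.31 and -1.86 in Sahiwal. Its 3 highest values were Ladakhi animals 1, 4 and 5, while animals 2 and 3 lay within the Sahiwal range, and the difference of 0.61 (SE 0.302) had an adjusted p of 0.115. PSMB7, the trypsin-like subunit, read 0.08, -0.85, -0.34, 0.56 and 0.22 in Ladakhi and 0.05, -0.70, -0.25, -0.44, -0.27 and -0.48 in Sahiwal. The breeds overlapped, with a difference of 0.28 (SE 0.293, adjusted p = 0.458). Its second probe was detected on 1 Ladakhi array. Ladakhi animals 1, 4 and 5 held the 3 highest Ladakhi values for PSMB6 and for PSMB7. PSMB4 differed by 0.48 (SE 0.242, adjusted p = 0.126) and PSMB1 by -0.60 (SE 0.281, adjusted p = 0.0982).

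Of the 6 ATPases, which form the unfolding ring, 4 were measured, and all 4 differences were above 0 (0.18 to 0.96, median 0.52), 1 of them past the threshold. The median was 0.88 without Ladakhi animal 4 and 0.33 without Ladakhi animal 1. PSMC1 and PSMC6, the ATPases not measured, had Sahiwal means of -3.25 and -3.04, above the average Ladakhi limit. With dim spots raised to the limit they differed by -0.52 and -0.61, neither past the threshold. The common sign thus holds for the ATPases detected in Ladakhi. PSMC4 was read by probes of 2 names with the same 60 bases, at chr18:49137142-49137201 on the plus strand, of which the first 30 are shown in capitals because all of them are shared.
PSMC4 probe A_73_P067626: CCCCAAACCTAGTTCTCTTTCCTCTTTACC
PSMC4 probe A_73_116303: CCCCAAACCTAGTTCTCTTTCCTCTTTACC
By the brighter of them, PSMC4 levels were -0.53, -0.50, -0.43, -0.99 and -0.48 in Ladakhi and -1.42, -1.89, -1.997, -1.28, -1.27 and -1.40 in Sahiwal. Every Ladakhi animal lay above every Sahiwal animal, by a difference of 0.96 (SE 0.258, 1.94-fold, adjusted p = 0.00941). By the other name the difference was 0.29 (SE 0.257, adjusted p = 0.382). The call for PSMC4 therefore holds for 1 of 2 spots with identical sequence. PSMC3 differed by 0.63 (SE 0.350, adjusted p = 0.159) and PSMC5 by 0.18 (SE 0.338, adjusted p = 0.697). PSMC2 read -1.14, -1.11, -0.997, -5.62 and -0.61 in Ladakhi and -2.61 to -1.98 in Sahiwal. The 4 Ladakhi animals with signal above background stood above the Sahiwal range, and animal 4, not above background, stood far below it, which leaves a difference of 0.41 (SE 0.708, adjusted p = 0.663).

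The 14 non-ATPase genes held 4 of the 6 genes that differed. Of the 14, 8 were measured, with 1 higher and 3 lower in Ladakhi and a median difference of -0.63 (range -1.37 to 1.099). The probes of the 4 called genes begin as follows. They lie at chr1:84754217-84754276 (PSMD2, minus strand), chr19:41589077-41589136 (PSMD3, plus strand), chr3:21068838-21068897 (PSMD4, minus strand) and chr19:17484568-17484627 (PSMD11, minus strand). Whether these stretches are coding or untranslated was not determined, since no annotation of that build was used here.
PSMD2: acactgctccagacctttaggggaatccag
PSMD3: ggagtggggcaccagaactgggacatgtgt
PSMD4: gtagggtcggaggtgttgtctgtaaccact
PSMD11: tttggtgcatctgtattccagccgataggt

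PSMD2, a scaffold of the base of the cap that docks ubiquitin shuttles, had levels of -0.67, 0.09, -0.28, -0.18 and -0.43 in Ladakhi and of -1.29, -1.38, -1.67, -1.31, -1.18 and -1.52 in Sahiwal. The lowest Ladakhi animal lay above the highest Sahiwal animal. The difference was 1.099 (SE 0.245, 2.14-fold, adjusted p = 0.0033), and PSMD2 has a single probe. PSMD4, a ubiquitin receptor that binds the chains of tagged proteins, went the other way. Its levels were -1.82, -2.04, -1.50, -1.99 and -1.47 in Ladakhi and -0.32, -0.59, -0.69, -0.26, -0.15 and -0.62 in Sahiwal. No Ladakhi value reached the Sahiwal range, and the difference was -1.32 (SE 0.248, a 2.50-fold lower level, adjusted p = 0.00116). Its second measured probe, shifted by 12 bases, differed by -0.997 (SE 0.299, adjusted p = 0.0165).

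PSMD3 and PSMD11, structural proteins of the lid, were also lower in Ladakhi. PSMD3 levels were -1.84, -2.59, -3.25, -0.57 and -2.35 in Ladakhi and -0.44, -0.92, -0.80, -0.69, -0.31 and -1.35 in Sahiwal. Ladakhi animal 4 lay inside the Sahiwal range and the other 4 below it, with a difference of -1.37 (SE 0.409, a 2.59-fold lower level, adjusted p = 0.0158). PSMD11 levels were -3.16, -1.67, -1.85, -1.57 and -2.05 in Ladakhi and -0.98, -1.48, -0.94, -1.13, -1.40 and -1.22 in Sahiwal. All Ladakhi values lay below all Sahiwal values, and the difference was -0.87 (SE 0.310, a 1.83-fold lower level, adjusted p = 0.0358). That call was lost without any 1 of Ladakhi animals 1 and 5 and Sahiwal animals 1, 3, 4 and 6, with differences of -0.88 to -0.60 and adjusted p of 0.0535 to 0.0918, and with the animal number as a block (adjusted p = 0.0882). The other measured lid genes, PSMD6, PSMD7, PSMD8 and PSMD13, differed by -0.29 (adjusted p = 0.461), -0.90 (0.0859), -0.36 (0.337) and -0.39 (0.218). PSMD14, the enzyme of the lid that cuts ubiquitin off the substrate, was above background in 1 Ladakhi animal. PSMD5, PSMD9 and PSMD10, which help assemble the base rather than stay in the finished cap, were among the genes not measured.

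By class, 7 of the 8 measured PSMD genes had differences below 0 and 12 of the 15 other genes had differences above 0, with medians of -0.63 and 0.41. PSMD2 was the PSMD gene above 0, and PSMA4, PSMA7 and PSMB1 were the others below it. The 7 of 8 held in each of the 30 alternatives with 8 PSMD genes measured, and 5 of 6 PSMD genes were below 0 when detection on all 11 arrays was required. The count above 0 among the others ran from 9 to 12 over all 31 alternatives, and their median fell to 0.08 (9 of 16 genes) when the probes of a gene were averaged. These counts hold only genes detected in Ladakhi, so a gene low there could drop out of them. The 5 genes not measured though above the average Ladakhi limit in Sahiwal were mostly outside the PSMD class. With dim spots raised to the limit, PSMB3 differed by -2.07, PSMB5 by -0.90, PSMC1 by -0.52, PSMC6 by -0.61 and PSMD1 by -0.07. The difference between the classes was not tested, since genes on the same arrays are not replicates of a breed.

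**Figure D3:**
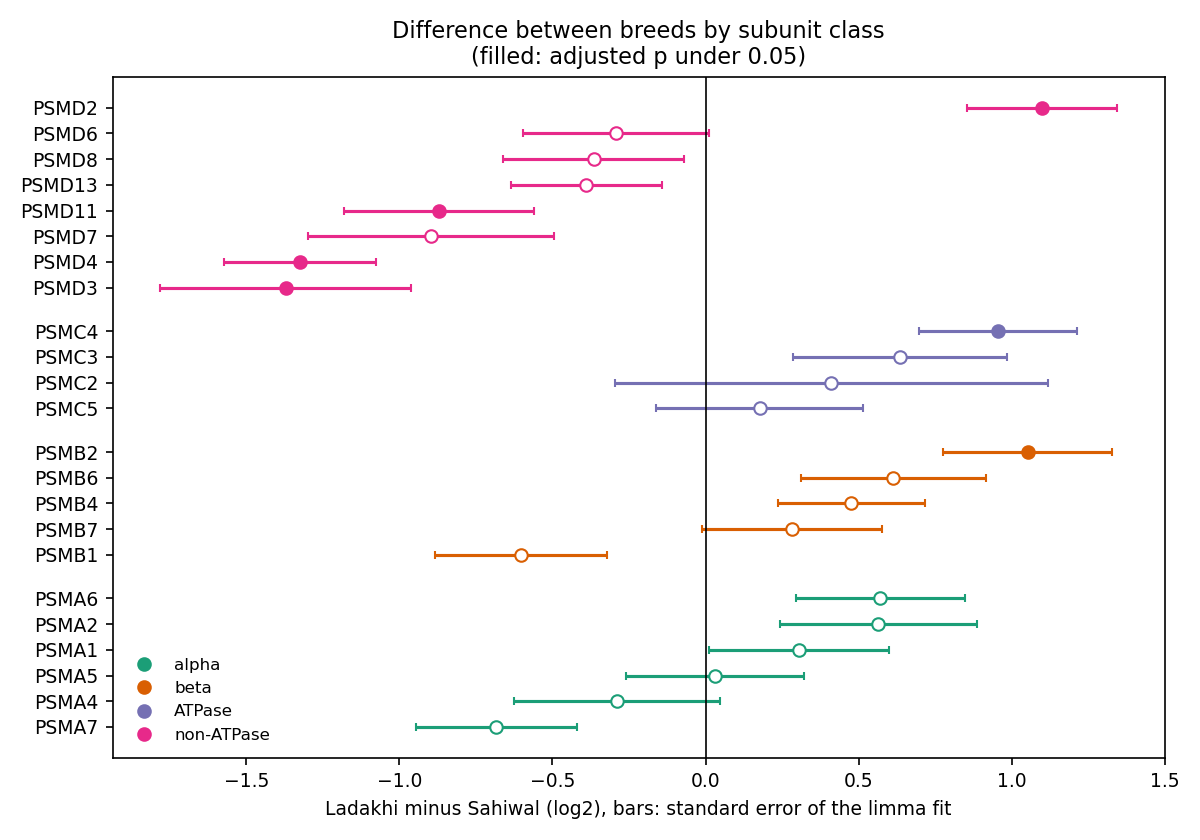
Ladakhi minus Sahiwal difference of the 23 measured genes (horizontal axis, log2; bars are the standard error of the limma fit), sorted within the alpha, beta, ATPase and non-ATPase classes; filled points have an adjusted p under 0.05. All points of the PSMD class except PSMD2 lie left of 0, and all 4 measured ATPases lie right of it.

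Probes of 1 gene did not always give 1 answer. Among the 7 genes with 2 or 3 measured probes, the differences spanned 0.09 (PSMD8) to 0.98 (PSMA5) with a median span of 0.67, and in PSMA5, PSMA6 and PSMC5 they had opposite signs. In 6 genes a pair of probes shared sequence, shifted by 0 to 47 bases, with 13 (PSMB4) to 60 (PSMC4) of their 60 bases in common. The first 30 bases of 3 such pairs are shown to make the overlap visible, with the longest shared run in capitals as far as it falls within them.
PSMA5 probe A_73_101172: ttgcccttaacttttatttccagctcCAGT
PSMA5 probe A_73_P152041: tgcccttaacttttaatttcagcttCAGTT
PSMA7 probe A_73_P302521: gcgtttcCATTCCACTTATCCATACTGTCC
PSMA7 probe A_73_P278256: CATTCCACTTATCCATACTGTCCAAGTGTC
PSMD4 probe A_73_100204: gtagggtgggggGTAGGGTCGGAGGTGTTG
PSMD4 probe A_73_P302976: GTAGGGTCGGAGGTGTTGTCTGTAACCACT

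For the identical PSMC4 probes, the level of A_73_116303 minus that of A_73_P067626 was 0.29, 0.31, 0.13, 0.08, 0.18 and 0.17 on the Sahiwal arrays and -0.57, -0.39, -0.33, -0.19 and -0.89 on the Ladakhi arrays. All 6 Sahiwal values were above 0 and all 5 Ladakhi values below it, while both probes carry the same 60 bases and were read on the same arrays. The gap between breeds was -0.67, with a two-sided exact permutation p of 0.00433 (0.00866 adjusted over the 6 pairs), the smallest that 5 against 6 arrays can give. Of the 7 sequences on the array that stand under 2 probe names, PSMC4 was the 1 with both measured in both breeds. The PSMA5 probes, shifted by 1 base with 3 mismatches, differed by 0.59 to 0.91 within Sahiwal arrays and by 1.08 to 2.04 within Ladakhi arrays, again without overlap (exact permutation p = 0.00433, adjusted 0.00866). By breed these 2 probes gave 0.03 (adjusted p = 0.941) and -0.94 (adjusted p = 0.0176). The PSMA7 probes, shifted by 7 bases with 53 shared and no mismatch, gave -0.68 and, with 3 Ladakhi arrays above background, -2.44, and their within-array gaps overlapped between breeds (exact permutation p = 0.0736, adjusted 0.110). The PSMB4 probes share 13 bases and gave 0.48 and, with 3 Ladakhi arrays above background, -3.26, and their gaps did not overlap (exact permutation p = 0.00433, adjusted 0.00866). With dim spots raised to the limit, a setting chosen after seeing the data, the exact permutation test gave p = 0.0736 for PSMA7 and 0.00433 for PSMB4. On average the PSMD4 and PSMD8 pairs gave like differences by both probes (-0.997 and -1.32, and -0.28 and -0.36), with exact permutation p of 0.273 and 0.883. On single Ladakhi arrays the gaps ran from -0.83 to 0.66 (PSMD4) and from -1.84 to 0.84 (PSMD8). On Sahiwal arrays they ran from -0.97 to -0.36 and from -0.63 to -0.38. The gap of 0.67 between the identical PSMC4 probes was larger than the absolute breed difference of 15 of the 23 measured genes.

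**Figure D4:**
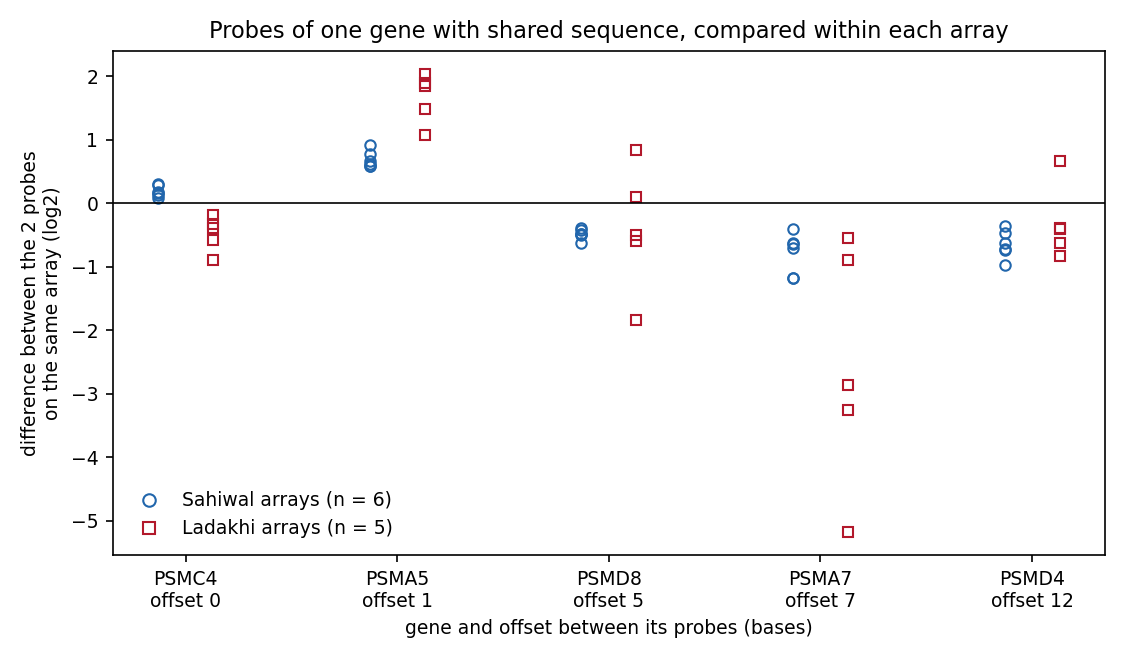
Level of one probe minus that of the other on the same array (vertical axis, log2) for 5 genes whose probes share sequence at offsets of 0 to 12 bases (horizontal axis), with 6 Sahiwal arrays as circles and 5 Ladakhi arrays as squares. For the identical PSMC4 probes all Sahiwal points lie above 0 and all Ladakhi points below it, and for PSMA5 the breeds are also apart.

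Of the 70 probes, 63 were above background on at least 4 Sahiwal arrays and 4 on no array of either breed, 1 each for PSMA1, PSMA7, PSMB6 and PSMD7. Each of these genes had another probe that was detected on all Sahiwal arrays. Among the brightest probes 8 of 34 held AATAAA or ATTAAA, the letters of the signal that precedes a poly(A) tail, in the printed direction and 3 of 34 on the other strand, beside 12.7% and 5.67% of all probes of the array.

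The 23 genes spread less within Sahiwal than within Ladakhi. The median SD among Sahiwal animals was 0.25, from 0.05 (PSMB1) to 0.58 (PSMA4), beside 0.38 for all measured genes. In Ladakhi it was 0.54, from 0.19 (PSMD13) to 2.09 (PSMC2), beside 0.52 for all measured genes, and for 19 of the 23 genes the SD was larger in Ladakhi. Some animals were high or low for many subunits at once. Over all 34 genes Sahiwal animal 5 had the highest Sahiwal value for 17 (50%), beside 32.0% of the 9639 genes on all 6 Sahiwal arrays, and Sahiwal animal 3 had the lowest for 13 (38.2%), beside 28.7%. Sahiwal animal 5 lay above its breed's mean for 19 of the 23 measured genes, with a median deviation of 0.20 (0.09 for all measured probes), and animal 2 for 6, with -0.16 (-0.09). In Ladakhi, animal 4 had the largest median deviation (0.37, beside 0.16 for all measured probes; above the breed mean for 15 of 23), animal 5 lay above the breed mean for 18 of 23 (median deviation 0.28, beside 0.08 for all measured probes), while animals 1 and 2 did so for 9 each (-0.12 and -0.20, beside 0.07 and 0.14). Genes of 1 array share its RNA and its depth, so these counts describe the arrays. Animal numbers are those of the array files.

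Of 39 genes that surround the proteasome, 37 were found by name on the array (PSMA8 and ECPAS were not), 19 were measured, and 7 differed, 4 higher and 3 lower in Ladakhi, beside 31.9% of all measured genes. Their median difference was 0.21. The immunoproteasome subunits did not differ at the threshold: PSMB8 by 0.60 (SE 0.290, adjusted p = 0.112) and PSMB9 by 0.01 (SE 0.254, adjusted p = 0.969), while PSMB10 was above background in 1 Ladakhi animal. Neither did the measured activators of the core, PSME1 (0.65, SE 0.279, adjusted p = 0.0753) and PSME2 (-1.19, SE 0.743, adjusted p = 0.212). PSME2 was below background at -5.34 in Ladakhi animal 2, while the other 4 Ladakhi animals read -1.16 to -0.06 and the Sahiwal animals -0.66 to 0.12. Of the assembly genes 5 of 7 were measured, with 1 higher and 2 lower. POMP, which matures the core and is then its first substrate, was higher by 1.01 (SE 0.287, adjusted p = 0.012), and PSMG1, a chaperone that pairs alpha subunits with PSMG2, was lower by 1.03 (difference -1.03, SE 0.377, adjusted p = 0.0408). The PSMG1 call was lost without any 1 of 7 animals, Ladakhi 2 and 3 and Sahiwal 1, 2, 4, 5 and 6. PSMG2, outside the naming rule and named after its value was seen, differed by -0.99 (adjusted p = 0.0256), and by 0.95 with its brightest Ladakhi probe. Of the further components of the cap 3 of 5 were measured and none differed. Of the genes that control subunit transcription none was measured, and NFE2L1, the factor that raises subunit genes when the proteasome is inhibited, was above background in 1 Ladakhi animal.

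Of the ubiquitin genes and activating enzymes 5 of 6 were measured and 3 were called, all higher in Ladakhi, although RPS27A, named after its value was seen and saturated on 5 Sahiwal arrays, was lower with quantile normalization (-0.47). UBA1, the main enzyme that activates ubiquitin, averaged 0.86 ± 0.31 (SD, n = 5) among Ladakhi animals against -0.94 ± 0.33 (SD, n = 6) among Sahiwal animals, a difference of 1.80 (SE 0.268, adjusted p = 0.0003). Among the shuttles and the unfoldase 2 of 8 were measured, and UFD1, a partner of the unfoldase VCP, was lower by 0.79 (difference -0.79, SE 0.250, adjusted p = 0.0211), with -0.80 ± 0.14 (SD, n = 5) for the Ladakhi mean and -0.01 ± 0.31 (SD, n = 6) for the Sahiwal mean. With the animal number as a block, 3 of these 7 calls remained.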

How the data were processed

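PBMC RNA of 5 Ladakhi and 6 Sahiwal animals was read on 1-colour arrays. Trizol and column purification preceded amplification with Cy3, per the labels' protocols. The deposited intensity of a spot is, per the file headers, Feature Extraction's processed signal (12.0.1.1 for Ladakhi, 9.5.3.1 for Sahiwal), its Cy3 brightness after background subtraction, and coordinates are on HGSC Btau_3.1. A second table that the authors deposited holds log2 values centred per probe, with column medians of 1.60 to 2.31 in Ladakhi and -0.73 to 0.00 in Sahiwal. Its scaling is not stated but matched the 75th percentile over all probes, and every column fitted a differently numbered array of its breed. It therefore served only as an alternative for the breed comparison, and the animal numbering is unsettled.

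Control spots were dropped, outlier spots set missing and saturated spots kept; no spot of the 34 genes was saturated. The signal was put on the log2 scale minus the array's 75th percentile over 2705 probes (those detected on every array). Probes detected in 4 or more animals of 1 breed or both (17866 of 43653) were fitted with limma 3.58.1 in R 4.3.3 (lmFit, eBayes, two-sided, Benjamini-Hochberg adjustment over all 17866, threshold 0.05; 7476 called). A bound sets the Sahiwal mean against the mean Ladakhi detection limit. Within-array gaps of probe pairs were compared by exact permutation. The members and lists were chosen with earlier results of these data known. Values on every array are given for the called, measured genes and for PSMB5, PSMB6 and PSMB7. Of the surrounding lists, the called, measured genes with the largest difference are named, at most 2 a list (1 such gene is not reported here); other genes and the probe pairs were picked with their values in view. On simulated data of 17866 probes for this comparison, 0 of 50 changes of 0.5 (log2), 3 of 50 of 1, 27 of 50 of 2 and 47 of 50 of 4 were recovered, with 2 false calls. These rates do not carry over to the real fit. Only 50 changes of each size were planted, while 7476 real probes were called, so the adjusted threshold was harder to pass in the simulation. Precision is limited by the number of arrays and by the dim Ladakhi signal. Alternatives covered scaling, background correction, filters, probe choice, names, saturation, outliers, dim spots, slide, animal number, array weights, the prior, the deposited log2 table and each animal left out.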

Additional observations from a re-analysis of the deposited data

Results flagged for a closer look

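In 46 groups of 5 or 6 animals (the 23 measured genes in each breed), 5 held an animal far from the others by Dixon's criterion, which chance meets in about 1 of 20 groups. PSMC2 in Ladakhi animal 4 read -5.62, not above background, while the other 4 Ladakhi animals read -1.14 or higher. PSMC4 in Ladakhi animal 4 read -0.99, with the next animal at -0.53. By the other PSMC4 probe, of identical sequence, that animal read -1.18, inside the Ladakhi range of -1.37 to -0.76. PSMC5 in Ladakhi animal 2 read -1.36, with the next at -0.02. The other measured PSMC5 probes read -0.86 there, the highest Ladakhi value, and -2.76, within a Ladakhi range of -3.25 to -2.61. PSMD8 in Ladakhi animal 5 read -2.18, with the next at -0.97. By the PSMD8 probe shifted by 5 bases it read -1.33, and Ladakhi animal 4 was lowest at -2.55. By the other measured probes of PSMC4, PSMC5 and PSMD8 the flagged animal was thus not the lowest Ladakhi animal. It was still low by the other PSMC4 probe and by 1 PSMC5 probe, where only the animals at -1.37 and -3.25 read lower. PSMA1 in Sahiwal animal 5 read -0.92, above the next at -1.32. Of these genes PSMC4 alone differed between breeds at the threshold, and it kept its call without Ladakhi animal 4.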

How the results depend on the processing

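Over 31 alternatives the count of called genes among the 34, 6 as reported, stayed within 1.5 times in 29. It was 13 (6 higher, 7 lower) with normexp background correction and 2 (1 higher, 1 lower) with 1 slide a breed, an alternative chosen after seeing the data. It ran from 5 to 9 without single animals. PSMD2 and PSMD4 were called in all 31. The median difference moved to -0.37 when probes were averaged, where 1 gene was called higher and 7 lower, and to -0.13 with the brightest Sahiwal probe, and ran from 0.09 to 0.23 without single animals. The 7 calls among the surrounding genes became 11 with the mean of probes, 12 with slide as a random block, 3 with the animal number as a replicate block and 3 with 1 slide a breed, and ran from 5 to 10 without single animals. Signs turned for PSMB2 with the brightest Sahiwal probe (-0.75; the sign rests on 2 Ladakhi arrays below background, the 3 above it lying over the Sahiwal range), for PSMB7 with the mean of probes (-0.62, which takes in a probe detected on 1 Ladakhi array), for PSMG2 with its brightest Ladakhi probe or detection on all 11 arrays (0.95 in both) and for RPS27A, saturated on 5 Sahiwal arrays, with quantile normalization (-0.47); the cause was not tested beyond the change of probe itself.

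Quantile normalization, cyclic loess and normexp moved the median of all measured probes by 0.20, 0.43 and 0.29, and their values are relative to that shift. Animal numbers did not pair the breeds (correlations of same-numbered deviations -0.05 to 0.02, no animal closest to its own number), and with the number as a replicate block 5 of the 34 genes were called, without PSMD11. Signal over background limits the Ladakhi side: 11 of the 34 genes could not be measured there.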
